A study of Mus musculus with 12 samples.

Results

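The TNF superfamily is a family of ligands, most of them trimeric membrane proteins that can be shed, and of the receptors that bind them. The genes described here are 5 ligands (Tnfsf10, Tnfsf13, Tnfsf13b, Tnfsf14, and Ltb) and 4 receptors (Tnfrsf1a, Tnfrsf1b, Tnfrsf9, and Fas), taken by gene symbol from the 36047 genes of the expression table and followed in all libraries. All 9 were found. Receptors with a cytoplasmic death domain, such as TNFR1 and FAS, can recruit caspases and RIP kinases, whereas the others signal through TRAF adaptors, and many members activate NF-κB. Eosinophils are granulocytes that reside in the lamina propria of the healthy small intestine (SI), where lymphotoxin and LIGHT are known for their part in lymphoid tissue organization and BAFF and APRIL for the support of B cells and plasma cells.

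RNA was sequenced from α4β7+, α4β7− CD22−, and CD22+ eosinophils, gated by the gut-homing integrin α4β7 and the inhibitory receptor CD22, with 4 libraries per subset and 12 in all. All libraries came from wild type C57BL/6J mice, labelled female, fed standard chow, with no treatment and no age in the labels. The cells were sorted from the proximal SI lamina propria as live CD45+ CD11b+ SiglecF+ MHCII− Ly6G− cells from a pair of mice pooled per library, and the study took the subsets as approximately younger, intermediate, and older cells. No source used here ties the replicate numbers to particular mice, so a p-value measures the spread between these pools.

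The deposited values are DESeq2-normalized counts, which summed to between 14286474 and 16915755 per library. These sums were highest in α4β7+ libraries and lowest in CD22+ libraries, with no overlap between any subsets. A single read was worth about 0.852 to 1.159 of these units, so that a floor of 3 reads lay at 2.56 to 3.48, and the floor covers counting error only. The gate genes followed the sort. Cd22 averaged 1115 ± 175 (SD, n = 4) in α4β7+ cells, 4462 ± 934 in α4β7− CD22− cells, and 13334 ± 1588 in CD22+ cells, and Itgb7, the β7 chain, averaged 2526 ± 519.7, 220.4 ± 81.0, and 156 ± 86.5. The eosinophil marker Siglecf was at 6884 to 8594 in every library, whereas Ccr3, Il5ra, Prg2, Epx, Itga4, and Itgam had lower means in the later subsets. Ccr3 averaged 25121, 15187, and 10773, Il5ra 2864, 2272, and 1793, Prg2 352, 185, and 110, and Epx 150, 129, and 68.9, in the order α4β7+, α4β7− CD22−, and CD22+. In the same order, Itga4, the α4 chain, averaged 37469, 29433, and 26876, and Itgam 35143, 32738, and 30066. The summed list of 9 eosinophil genes, which includes the gate genes, ranged from 107182 to 119815, from 90143 to 94250, and from 87103 to 94726. Markers of other cells were also present in every subset, and the summed list of 5 plasma cell genes, for example, lay between 10708 and 35937 over all libraries. The summed innate lymphoid and NK list of 6 genes ranged from 406 to 573 in α4β7+ libraries, from 231 to 352 in α4β7− CD22− libraries, and from 257 to 436 in CD22+ libraries, with 0 of its genes at 0 in any subset. The T cell list of 8 genes ranged from 1005 to 1749, from 621 to 964, and from 1012 to 1440, again with none at 0. The neutrophil list of 7 genes was low, at 47.3 to 78.7, 29.8 to 54.6, and 18 to 33.3, with Elane at 0 in all subsets. In such bulk samples, fewer cells of a type and less RNA per cell cannot be told apart.

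The upstream sequences of the 3 genes called as different between subsets, by the thresholds given below, are shown first. They are the bases directly before the RefSeq start site, read 5′ to 3′ on the gene's strand from build GRCm38.p6, and capitals mark matches to the motifs given after them.

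Tnfsf14, chr17:57194182-57194431, minus strand: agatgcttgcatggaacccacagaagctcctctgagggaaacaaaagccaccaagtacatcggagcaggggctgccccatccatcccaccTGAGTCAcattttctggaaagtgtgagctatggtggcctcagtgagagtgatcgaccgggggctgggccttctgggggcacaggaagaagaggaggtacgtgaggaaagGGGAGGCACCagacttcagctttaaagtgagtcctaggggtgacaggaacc
Fas, chr19:34290409-34290658, plus strand: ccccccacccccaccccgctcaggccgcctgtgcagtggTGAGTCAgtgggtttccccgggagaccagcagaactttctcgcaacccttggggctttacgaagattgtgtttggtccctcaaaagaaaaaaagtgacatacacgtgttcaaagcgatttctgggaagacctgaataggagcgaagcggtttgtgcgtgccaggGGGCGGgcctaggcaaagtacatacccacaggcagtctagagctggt
Tnfrsf1a, chr6:125349509-125349722, plus strand: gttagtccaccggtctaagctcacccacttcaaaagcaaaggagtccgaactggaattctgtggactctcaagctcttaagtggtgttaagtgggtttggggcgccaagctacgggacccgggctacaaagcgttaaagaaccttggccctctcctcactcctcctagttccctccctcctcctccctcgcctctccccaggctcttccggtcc

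Tnfsf14 and Fas each held the AP-1 motif TGANTCA, 160 and 211 bases before the start, a motif that 6.87% of the 27025 RefSeq mouse promoters hold in the same 250 bases. Tnfsf13, Tnfsf13b, and Tnfrsf9, which were not called, held it too. Tnfsf14 also held a loose form of the NF-κB motif, GGGA and CC with any 4 bases between them, 51 bases before the start (17.3% of promoters), and Fas held the GC box GGGCGG 47 bases before it (32.9%). Neither held a stricter form contained in the loose one, GGGA and TTTCC with any base between them, which 0.337% of promoters hold and which among the 9 genes was found only for Ltb, on the minus strand. The retinoid half-site AGGTCA and the TATA box TATAAA, present in 13.8% and 12.97% of promoters, were found before none of the 9 genes, whose 11 listed start sites were all searched on both strands. The stretch of Tnfrsf1a, printed only where it lies outside annotated exons, held none of these motifs. A match is a description of letters and not of a binding site.

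Genes were tested with limma on log2(normalized count + 1), in 1 model of the 3 subsets over the 15249 genes with an average normalized count above 10, and the calls needed an adjusted p (Benjamini-Hochberg) no higher than 0.05 together with a 1.5-fold change or more. Of the 9 genes, 7 passed the filter, and Tnfsf13 and Tnfrsf9 did not. In α4β7− CD22− cells relative to α4β7+ cells, Tnfrsf1a was higher and Tnfsf14 and Fas were lower, and in CD22+ cells relative to α4β7+ cells the same 3 genes were called in the same directions. These comparisons share the α4β7+ libraries. Over all genes tested, 8.05% were called in the first comparison (3.70% higher and 4.35% lower) and 12.0% in the second (5.60% higher and 6.39% lower). Between CD22+ and α4β7− CD22− cells, 0 of the 7 were called by limma and 2, Tnfsf14 and Fas, had an unadjusted p under 0.05, beside 0.603% called and 9.67% at that unadjusted p over all genes.

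The median log2 fold change of the 7 genes was −0.29, 0.09, and 0.13 in the 3 comparisons in this order, beside 0.003, 0.014, and −0.001 over all genes tested. The libraries of the subsets compared did not overlap for 4 of the 7 genes (Tnfsf14, Ltb, Tnfrsf1a, and Fas) in each comparison with α4β7+ cells, against 18.8% and 22.9% of all genes. For CD22+ and α4β7− CD22− cells this held for 2 of the 7 (Tnfsf10 and Tnfsf14), against 6.37%.

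**Figure D1:**
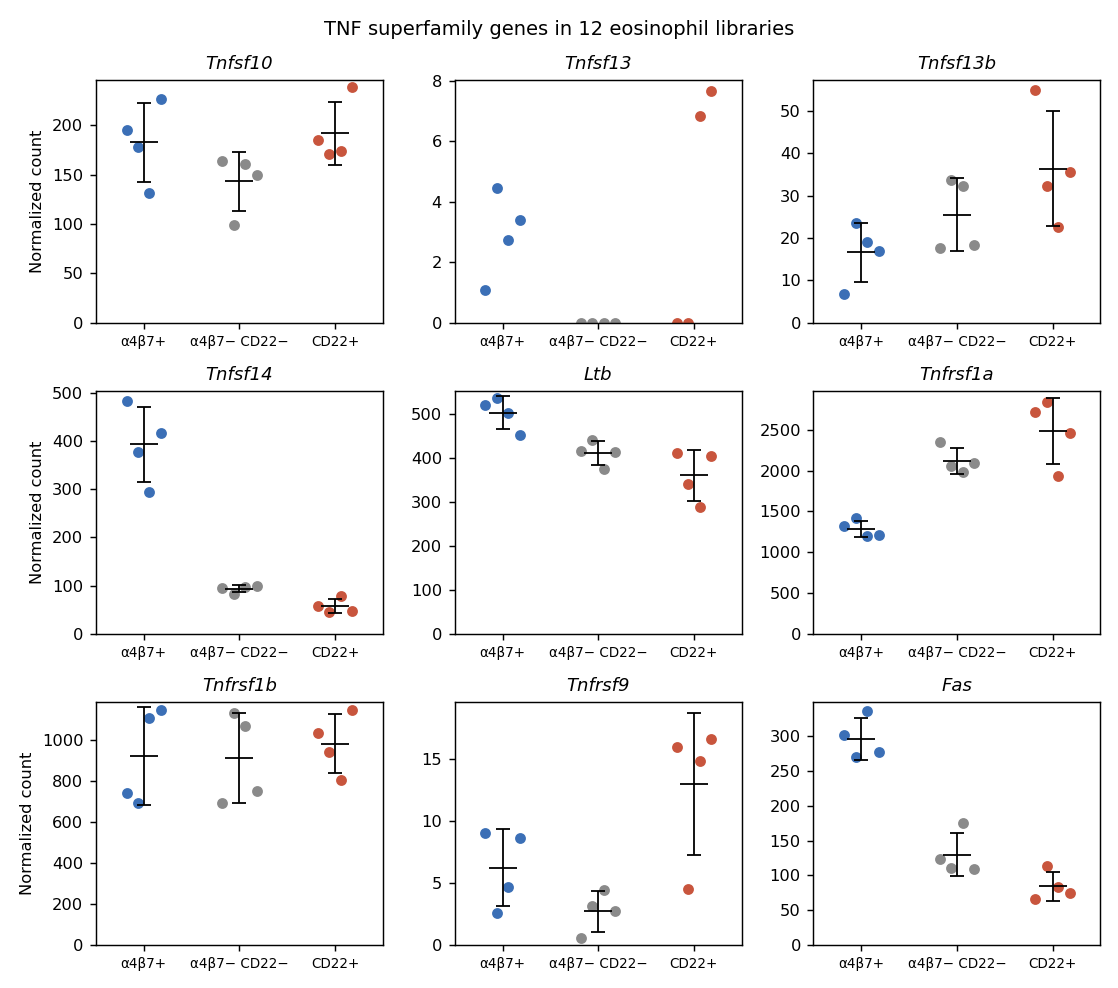
Normalized count (linear axis from 0) of each of the 9 genes in the 12 libraries. Points are libraries by subset, and the black bar is the mean with the SD over 4 libraries, left out for Tnfsf13, which is listed at 0 in 6 libraries. The α4β7+ libraries of Tnfsf14 and Fas lie above all others, and those of Tnfrsf1a lie below all others.

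Among these 5 ligands, Tnfsf14 had the largest fold changes relative to α4β7+ cells. It encodes LIGHT, which binds HVEM and the lymphotoxin β receptor, and lies on chr17:57189492-57194177 (minus strand, GRCm38, ENSMUSG00000005824). Its normalized counts were 483, 379, 295, and 418 in the α4β7+ libraries, 94.9, 83.1, 96.6, and 99.0 in the α4β7− CD22− libraries, and 57.9, 45.8, 77.9, and 47.6 in the CD22+ libraries. All 4 libraries of each subset lay below all those of the subset before it. The mean was 393 ± 78.6, 93.4 ± 7.06, and 57.3 ± 14.7 (SD, n = 4), so that α4β7+ cells held 4.21 times the level of α4β7− CD22− cells and 6.87 times that of CD22+ cells. The log2 fold change was −2.04 (SE 0.199, limma adjusted p = 6.74e-06) in α4β7− CD22− cells and −2.77 (SE 0.199, adjusted p = 1.34e-07) in CD22+ cells relative to α4β7+ cells. From α4β7− CD22− to CD22+ cells it was −0.72 (95% interval −1.15 to −0.30), which did not pass the adjusted threshold (limma adjusted p = 0.122). The change over the first step exceeded that over the second by −1.32 on the log2 scale, with a limma adjusted p of 0.0858 for this difference, so the steps were not shown to differ. The eosinophil, neutrophil, T cell, and innate lymphoid and NK lists given above also had their highest median in α4β7+ cells. So did a macrophage and dendritic cell list (medians 23256, 22078, and 19840) and an epithelium list (4524, 3083, and 3067). The B cell, plasma cell, mast cell, Paneth and goblet, and stroma and endothelium lists had theirs in another subset. The part of these cells in the result was not tested.

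Ltb, which encodes lymphotoxin β, the membrane anchor of the lymphotoxin heterotrimer, moved in the same direction by less. The gene lies on chr17:35194439-35196320 (plus strand, ENSMUSG00000024399), beside Tnf and Lta. Its counts were 520.5, 537, 504, and 452 in α4β7+ libraries, 417, 441, 376, and 413 in α4β7− CD22− libraries, and 411, 339.7, 288, and 404 in CD22+ libraries. The lowest α4β7+ library exceeded every library of the other subsets, which overlapped each other. The log2 fold change in CD22+ cells was −0.49 (SE 0.122, 95% interval −0.75 to −0.23), with a limma adjusted p of 0.00933 but a ratio of means of 1.40, below the fold threshold. On the adjusted p alone, 4 of the 7 genes passed in this comparison, beside 21.1% of all genes, against 3 of the 7 beside 14.9% for α4β7− CD22− over α4β7+ cells and 0 of the 7 beside 1.08% for CD22+ over α4β7− CD22− cells. In α4β7− CD22− cells the log2 fold change of Ltb was −0.29 (95% interval −0.55 to −0.03, limma adjusted p = 0.139). Lymphoid cells also express Ltb, and the T cell and innate lymphoid lists were lower in α4β7− CD22− than in α4β7+ libraries without overlap, whereas in CD22+ libraries, where Ltb was lowest, both lists overlapped those of α4β7+ libraries. Their part in the result was not tested.

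Tnfsf10 encodes TRAIL, a ligand that can induce apoptosis (chr3:27317028-27342427, plus strand, ENSMUSG00000039304). Its counts were 195, 178, 132, and 227 in α4β7+ libraries, 164, 99.2, 161, and 149.9 in α4β7− CD22− libraries, and 185, 171, 174, and 239 in CD22+ libraries. The intermediate subset was the lowest, with no overlap with CD22+ libraries and with overlap with α4β7+ libraries. No difference was called. The log2 fold change was −0.35 (95% interval −0.78 to 0.09) in α4β7− CD22− cells and 0.09 (−0.35 to 0.52) in CD22+ cells relative to α4β7+ cells, and 0.43 (0.00 to 0.87) between CD22+ and α4β7− CD22− cells, with limma adjusted p of 0.304, 0.823, and 0.521. The T cell list was lowest in the same subset, without overlap with CD22+ libraries, and its part in the result was not tested.

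Tnfsf13b encodes BAFF, a survival factor for B cells (chr8:10006467-10039072, plus strand, ENSMUSG00000031497). It was a low-count gene, at 6.84, 23.5, 19.0, and 16.9 in α4β7+ libraries, 17.7, 33.7, 32.2, and 18.4 in α4β7− CD22− libraries, and 55.0, 32.2, 22.5, and 35.7 in CD22+ libraries. The subset means went up in the order of the gates, but the subsets overlapped. The log2 fold change in CD22+ relative to α4β7+ cells was 1.14 (SE 0.421, 95% interval 0.24 to 2.04), with a limma adjusted p of 0.0710 that missed the threshold. It passed when libraries were rescaled to the same total (limma adjusted p = 0.0347), and over all its alternatives the adjusted p lay between 0.0347 and 0.206.

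Tnfsf13 encodes APRIL, a plasma cell survival factor (chr11:69682846-69685784, minus strand, ENSMUSG00000089669), and was at the detection floor. It was listed at 1.06, 4.45, 2.72, and 3.40 in α4β7+ libraries, at 0 in all 4 α4β7− CD22− libraries, and at 0, 0, 6.84, and 7.65 in CD22+ libraries. In 3 of the 4 α4β7+ libraries the value was at or below 3 reads, so no fold is given. The exact two-sided permutation test of α4β7− CD22− against α4β7+ libraries gave p = 0.0286, the smallest that 70 splits allow, and 0.0857 after adjustment over the 6 tests of the genes under the filter. The value also depends on how reads are divided between genes. The read-through gene Tnfsfm13, which joins Tnfsf12 and Tnfsf13, holds 58.4% of the 31-base words of Tnfsf13 transcripts, and the counting method assigns reads by such words.

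Tnfsfm13 itself was at 30.7, 4.69, 17.5, and 23.2 in α4β7+ libraries, at 25.7, 19.96, 13.2, and 9.32 in α4β7− CD22− libraries, and at 14.99, 7.90, 44.6, and 4.49 in CD22+ libraries. Its subsets overlapped. Summed with Tnfsf13, an alternative chosen after the values were seen, the level was 21.9 ± 9.73, 17.0 ± 7.24, and 21.6 ± 20.1 (SD, n = 4), and the log2 fold change of α4β7− CD22− over α4β7+ cells was −0.31 with a limma adjusted p of 0.778, beside 0.272 for Tnfsf13 alone without the filter. A ratio of Tnfsf13b to Tnfsf13 could not be given, because Tnfsf13 was listed at 0 in 6 libraries.

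**Figure D2:**
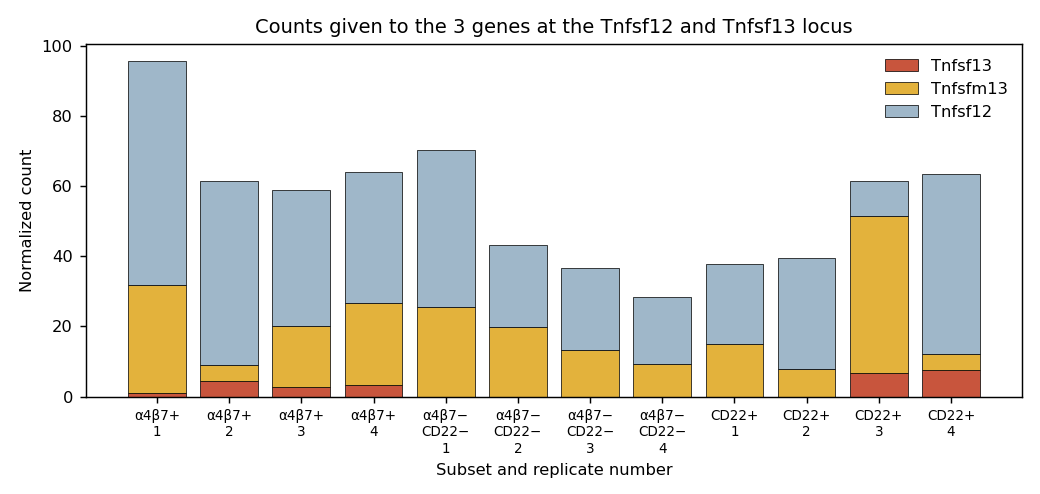
Normalized counts given to Tnfsf13, the read-through gene Tnfsfm13, and Tnfsf12 in each library, stacked (linear axis from 0). Tnfsf13 is absent from the bars of the 4 α4β7− CD22− libraries and of 2 CD22+ libraries, while Tnfsfm13 has counts in all 12.

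Among these 4 receptors, Tnfrsf1a had the highest level per kilobase and was the only one called higher. It encodes TNFR1, the death domain receptor for TNF (chr6:125349362-125362484, plus strand, ENSMUSG00000030341). Counts were 1316, 1419, 1199, and 1214 in α4β7+ libraries, 2355, 2062, 1978, and 2092 in α4β7− CD22− libraries, and 2716, 2844, 1929, and 2468 in CD22+ libraries. All 8 libraries of the later subsets lay above all 4 α4β7+ libraries and overlapped each other. The mean was 1287 ± 102, 2122 ± 163, and 2489 ± 405 (SD, n = 4), which is 1.65 and 1.93 times the α4β7+ level. Its log2 fold change was 0.72 (SE 0.111, limma adjusted p = 0.000420) in α4β7− CD22− cells and 0.94 (SE 0.111, adjusted p = 1.98e-05) in CD22+ cells. Between these subsets it was 0.22 (95% interval −0.02 to 0.45, limma adjusted p = 0.575). The stroma and endothelium list of 6 genes ranged from 10370 to 11840 in α4β7+ libraries, 12455 to 13712 in α4β7− CD22− libraries, and 11350 to 12130 in CD22+ libraries. Most of it was Pecam1, with means of 9894, 12127, and 10536. Every other gene of the list had a lower mean in α4β7− CD22− than in α4β7+ cells. In CD22+ cells Dcn was lower than in α4β7+ cells, and Col1a1, Col3a1, Pdgfra, and Cdh5 were higher. The part of stroma and endothelium in the result was not tested.

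Tnfrsf1b encodes TNFR2, the receptor for TNF without a death domain (chr4:145213463-145246870, minus strand, ENSMUSG00000028599). Its counts were 739.8, 691, 1109.8, and 1148 in α4β7+ libraries, 695, 1130.3, 1071, and 753 in α4β7− CD22− libraries, and 1035, 943, 805, and 1149 in CD22+ libraries. The subsets overlapped fully, and the spread within a subset was larger than any difference between their means. The log2 fold change was −0.01 (95% interval −0.42 to 0.40) and 0.12 (−0.30 to 0.53) relative to α4β7+ cells, with limma adjusted p of 0.983 and 0.735. Within a library, the ratio of Tnfrsf1b to Tnfrsf1a counts was 0.730 ± 0.240 in α4β7+ cells, 0.436 ± 0.128 in α4β7− CD22− cells, and 0.399 ± 0.0567 in CD22+ cells (SD, n = 4). Its α4β7+ range of 0.487 to 0.946 overlapped the α4β7− CD22− range of 0.295 to 0.548 and lay above the CD22+ range of 0.331 to 0.466.

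Fas encodes the death receptor for FAS ligand (chr19:34290666-34327772, plus strand, ENSMUSG00000024778). Its counts were 302, 269.7, 336, and 277 in α4β7+ libraries, 124, 111, 175, and 109 in α4β7− CD22− libraries, and 66.0, 114, 82.6, and 74.2 in CD22+ libraries. Every α4β7+ library lay above every other library, and the highest CD22+ library exceeded 2 of the α4β7− CD22− libraries. The level in α4β7+ cells was 2.28 times that of α4β7− CD22− cells and 3.52 times that of CD22+ cells. On the log2 scale the fold change was −1.21 (SE 0.197, limma adjusted p = 0.000690) and −1.83 (SE 0.197, adjusted p = 8.36e-06) in this order. From α4β7− CD22− to CD22+ cells it was −0.62 (95% interval −1.04 to −0.20, limma adjusted p = 0.224). The T cell and innate lymphoid lists were also lower in α4β7− CD22− than in α4β7+ libraries without overlap, but overlapped α4β7+ libraries in CD22+ cells, where Fas was lowest, and their part in the result was not tested.

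Tnfrsf9 encodes 4-1BB, a costimulatory receptor best known from activated T cells (chr4:150914562-150946102, plus strand, ENSMUSG00000028965). It was a low-count gene, at 9.01, 2.58, 4.66, and 8.63 in α4β7+ libraries, 0.529, 3.14, 4.46, and 2.70 in α4β7− CD22− libraries, and 15.97, 4.50, 14.8, and 16.6 in CD22+ libraries. The CD22+ libraries lay above the α4β7− CD22− libraries, by 4.50 against 4.46 at the closest. The exact two-sided permutation test gave p = 0.0286, the smallest it allows, and 0.0857 after adjustment over the 6 tests. It took the libraries as unpaired, and no paired form was run for this gene. Against α4β7+ libraries the exact permutation p was 0.143 for α4β7− CD22− cells and 0.171 for CD22+ cells. The T cell list, at 621 to 964 in α4β7− CD22− libraries and 1012 to 1440 in CD22+ libraries, was also higher in CD22+ cells without overlap, and its part in the result was not tested.

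**Figure D3:**
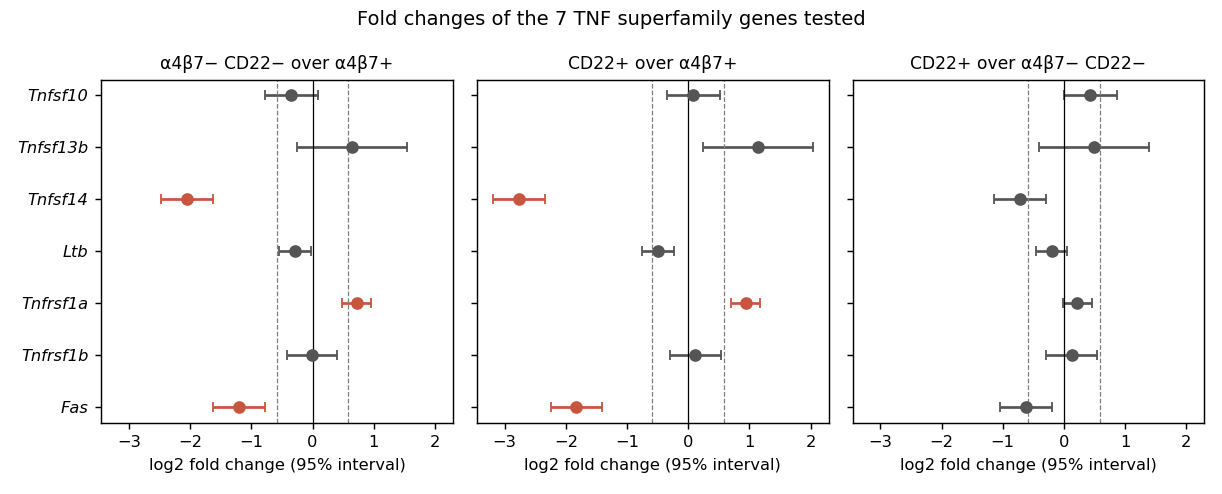
log2 fold changes of the 7 genes tested, with 95% intervals from limma, in the 3 comparisons. Red points were called, dashed lines mark a fold change of 1.5, and the solid line marks no change. Tnfsf14, Fas, and Tnfrsf1a are red in both comparisons with α4β7+ cells, and no gene is red between CD22+ and α4β7− CD22− cells.

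Levels were compared between the 9 genes as normalized counts per kilobase of the longest annotated transcript. In α4β7+ cells Tnfrsf1a came first at 597 ± 47.3, followed by Ltb at 355 ± 26.1 and Tnfrsf1b at 242 ± 62.9 (SD, n = 4). Tnfsf14 at 213 ± 42.5 and Fas at 182 ± 18.4 came next, and neither Tnfrsf1b and Tnfsf14 nor Tnfsf14 and Fas differed beyond the range of their libraries. In CD22+ cells Tnfrsf1a stood at 1155 ± 188, and Tnfrsf1b at 258 ± 38.1 and Ltb at 254 ± 40.9 overlapped. Below them lay Fas at 51.8 ± 12.9, Tnfsf10 at 38.5 ± 6.42, and Tnfsf14 at 31.03 ± 7.96, each overlapping the next. LIGHT thus went from the fourth place per kilobase in α4β7+ cells, where it was over TRAIL at 36.6 ± 7.94 without overlap, to a level overlapping that of TRAIL in CD22+ cells. In α4β7− CD22− cells the order was Tnfrsf1a at 984 ± 75.5, Ltb at 291 ± 19.1 and Tnfrsf1b at 239 ± 57.6, which overlapped, and then Fas at 79.8 ± 19.1, Tnfsf14 at 50.6 ± 3.82, and Tnfsf10 at 28.7 ± 6.03, each clear of the next. Tnfsf13b, Tnfrsf9, and Tnfsf13 were last in all 3 subsets, between 0 and 7.62 per kilobase on average. The order is that of RNA and depends on the length used, since with the mean transcript length 21 of 27 places stayed the same. With that length Tnfsf10, at 57.0 to 80.0 per kilobase, lay clear above Tnfsf14, at 24.8 to 42.2, in CD22+ cells, and the ranges of both genes overlapped in α4β7− CD22− cells.

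**Figure D4:**
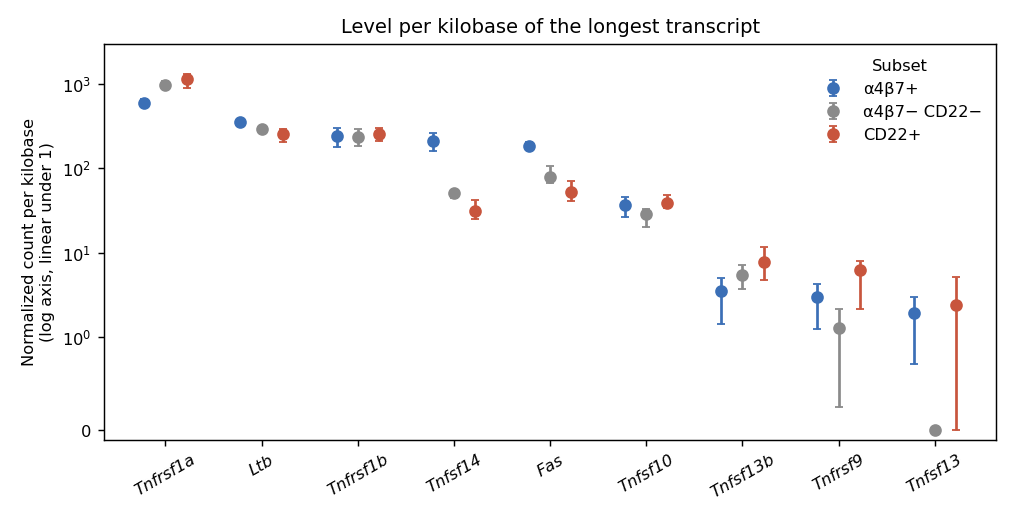
Mean normalized count per kilobase of the longest transcript for the 9 genes (log axis, linear under 1), with bars from the lowest to the highest of 4 libraries, by subset. Tnfrsf1a stays at the top in every subset, and Tnfsf14 and Fas drop from near Tnfrsf1b in α4β7+ cells to near Tnfsf10 in CD22+ cells.

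Within each library, the sum of the 4 receptors was 2.31 ± 0.358 times that of the 5 ligands in α4β7+ cells, 4.70 ± 0.300 times in α4β7− CD22− cells, and 5.52 ± 0.769 times in CD22+ cells (SD, n = 4). The highest α4β7+ library, at 2.78, lay below the lowest of the other libraries, at 4.35. This ratio does not move with the scaling of a library. It uses counts not divided by length and restates genes described above. Among the receptors, Tnfrsf1a was called higher, Fas lower, and Tnfrsf1b not called, and among the ligands only Tnfsf14 was called, as lower.

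The ligands and receptors that pair with the 9 genes were then examined. The ligand of TNFR1 and TNFR2, Tnf, was at 187, 198, 155, and 176 in α4β7+ libraries, 30.2, 33.1, 16.8, and 38.5 in α4β7− CD22− libraries, and 23.1, 13.3, 17.5, and 29.5 in CD22+ libraries. The α4β7+ libraries lay far above the others, with ratios of means of 6.04 and 8.59. Its log2 fold change was −2.61 (SE 0.301, limma adjusted p = 3.34e-05) and −3.09 (SE 0.301, adjusted p = 2.91e-06). The TNF ligand was thus lower and its receptor Tnfrsf1a higher in the same subsets, while no difference of Tnfrsf1b was called. Of cells that also make TNF, the summed list of 12 macrophage and dendritic cell markers ranged from 23042 to 23886 in α4β7+ libraries, 20834 to 25557 in α4β7− CD22− libraries, and 19697 to 25397 in CD22+ libraries. Most of this sum was Adgre1, which eosinophils also express, with means of 16843, 16665, and 13996, and the next most abundant were Cd74, with means of 2277, 2209.8, and 2800, and Csf1r, with 1905, 1578, and 1593. The T cell and the innate lymphoid and NK lists were lower in α4β7− CD22− than in α4β7+ libraries without overlap, but in CD22+ libraries, where Tnf was lowest, both overlapped α4β7+ libraries. The part of these cells in the result was not tested.

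The receptors of LIGHT and lymphotoxin were slightly higher in both later subsets, by less than the fold limit. Tnfrsf14, which encodes HVEM, averaged 914 ± 77.3, 1154 ± 35.3, and 1174 ± 72.6, and Ltbr averaged 502 ± 40.5, 673 ± 57.9, and 713 ± 52.2 (SD, n = 4). For each gene, all α4β7+ libraries lay below all the others. The log2 fold changes relative to α4β7+ cells were 0.34 and 0.36 for Tnfrsf14 and 0.42 and 0.50 for Ltbr, all with a limma adjusted p under the threshold (0.0110, 0.00487, 0.00939, and 0.00173) and all below the 1.5-fold limit, so neither was called. For the remaining partners no difference was called. These were Fasl, the FAS ligand, Tnfrsf10b, the TRAIL receptor, and the BAFF receptors Tnfrsf13b and Tnfrsf13c. Their log2 fold changes relative to α4β7+ cells lay between −0.46 and 0.15, and the intervals of Fasl, wider than those of the other 3, ran from −1.27 to 0.35 in α4β7− CD22− cells and from −1.10 to 0.53 in CD22+ cells. Lta, Tnfsf9, and Tnfrsf17 were under the filter.

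**Figure D5:**
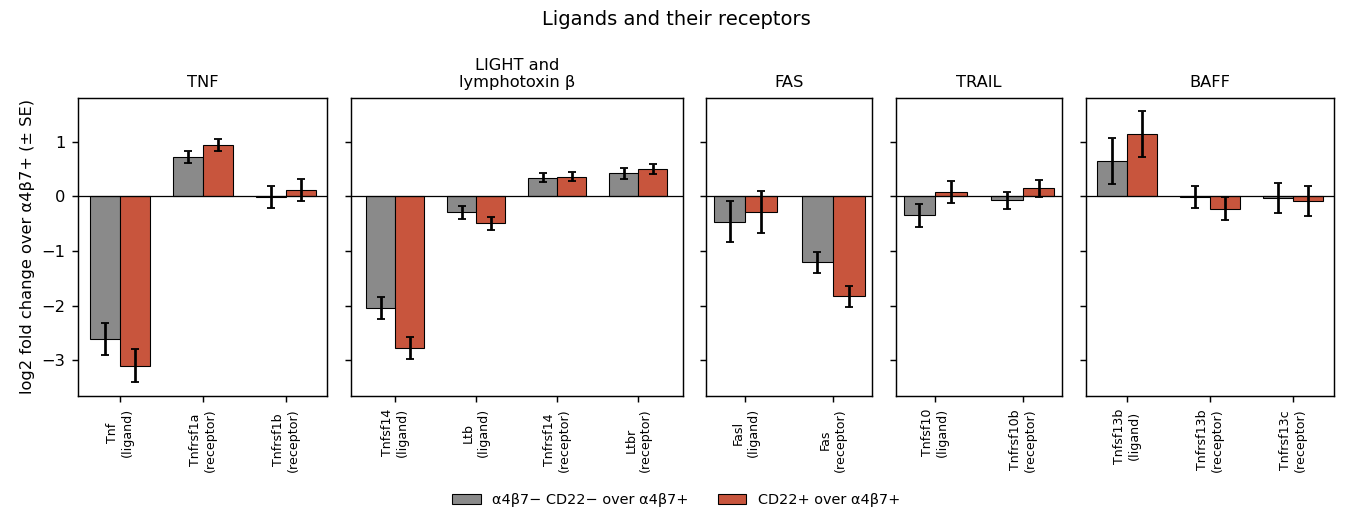
log2 fold change over α4β7+ cells, with SE from limma, for ligands and the receptors they bind, in α4β7− CD22− (grey) and CD22+ (red) cells. Bars start at 0. Tnf and Tnfsf14 reach the lowest values, and Tnfrsf1a the highest called value. Of the genes drawn, only Tnf, Tnfsf14, Fas, and Tnfrsf1a were called, each in both comparisons.

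Of the other 37 ligands and receptors of the family, 22 passed the filter. In α4β7− CD22− cells 0 were called higher and 2 lower (Tnf and Tnfrsf21), and in CD22+ cells 0 higher and 3 lower (Tnf, Tnfrsf18, and Tnfrsf21), relative to α4β7+ cells. These are 9.09% and 13.6% of the 22, beside 8.05% and 12.0% of all genes. At an unadjusted p under 0.05 in limma the counts in either direction were 5 and 8, beside 27.1% and 32.0% of all genes. The median log2 fold change of the 22 was −0.05 and −0.14, beside 0.003 and 0.014 over all genes. Tnfrsf21, which encodes death receptor 6, averaged 235 ± 26.8, 138 ± 25.4, and 117 ± 10.6 (SD, n = 4), with log2 fold changes of −0.77 (limma adjusted p = 0.00415) and −0.996 (0.000343). Tnfrsf18, which encodes the costimulatory receptor GITR, averaged 205 ± 39.8, 146 ± 12.3, and 95.3 ± 18.6, with log2 fold changes of −0.47 (limma adjusted p = 0.0967) and −1.10 (0.000375). The antisense gene Gm16008 shares 21.9% of the 31-base words of Tnfrsf18, so reads of the pair may be mixed. Between CD22+ and α4β7− CD22− cells 0 were called by limma, with 1 of the 22 at an unadjusted p under 0.05, beside 9.67% of all genes.

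Downstream of the receptors, 44 genes of adaptors, ubiquitin enzymes, kinases, death machinery, and ligand processing were all above the filter. Of these, 2 were called higher and 2 lower in α4β7− CD22− cells, and 3 higher and 4 lower in CD22+ cells, relative to α4β7+ cells. These are 9.09% and 15.9% of the list, beside 8.05% and 12.0% of all genes. At an unadjusted p under 0.05 in limma the counts were 20 and 17 of the 44, beside 27.1% and 32.0% of all genes. The median log2 fold change was 0.02 and 0.06. Between CD22+ and α4β7− CD22− cells limma called 0, beside 0.603% of all genes, with 5 of the 44 at an unadjusted p under 0.05, beside 9.67%.

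The largest change was that of Tnfaip3, which encodes A20, a deubiquitinase that limits NF-κB signalling and is itself an NF-κB target. It averaged 24177 ± 983 in α4β7+ cells, 6185 ± 825 in α4β7− CD22− cells, and 4323 ± 325 in CD22+ cells (SD, n = 4), with no overlap between any subsets. In limma the log2 fold change was −1.98 (SE 0.0882, limma adjusted p = 1.05e-08) and −2.49 (adjusted p = 2.76e-10). Between the later subsets it was −0.51 (limma adjusted p = 0.0100), under the fold limit, and the first step exceeded the second (difference −1.47, limma adjusted p = 0.000419). Such a difference of steps passed for 1.23% of all genes and for 0 of the 7 TNF superfamily genes tested, of which Tnfsf14 had the lowest limma adjusted p at 0.0858, with 3 of the 7 (Tnfsf14, Tnfrsf1a, and Tnfsf10) at an unadjusted p under 0.05, beside 12.5% of all genes.

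Bid, the BH3 protein that caspase 8 cleaves to connect death receptors to mitochondria, averaged 359.6 ± 28.4, 161 ± 21.6, and 129 ± 6.34, with log2 fold changes of −1.16 (limma adjusted p = 3.32e-05) and −1.47 (1.48e-06). It shares 16.9% of its 31-base words with Bcl2l13, which overlaps it on the opposite strand. Tnip2, an A20-binding inhibitor of NF-κB, went the other way, at 129 ± 20.8, 229 ± 59.5, and 280.3 ± 28.3, with log2 fold changes of 0.80 (limma adjusted p = 0.00899) and 1.12 (0.000454). Further calls in CD22+ cells, named after their values were seen, were Birc3 (log2 fold change −0.83), a ubiquitin ligase known as cIAP2, Tank (−0.79), Map3k8 (0.82), and Ripk3 (0.62), a kinase of necroptosis. The Map3k8 call was lost without α4β7+ replicate 1 or 2 or CD22+ replicate 1, 2, or 3, the Ripk3 call without α4β7+ replicate 2 or CD22+ replicate 1 or 4, and both without the filter on low values. Over all alternatives the limma adjusted p reached 0.0778 for Map3k8 and 0.0630 for Ripk3.

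For the 3 genes called, the genes with the most similar pattern over the 12 libraries were named as a description, by Pearson's correlation of log2 values among genes with a mean of at least 100. The libraries share the subset differences, which such values mostly reflect. For Tnfsf14 these were Cerk (r = 0.985) and Acss1 (r = 0.983), for Fas they were Arhgap15 (r = 0.980) and Gcnt1 (r = 0.972), and for Tnfrsf1a they were Wsb2 (r = 0.977) and Nlrx1 (r = 0.976). Over the same 12 libraries, Tnfsf14 had r = 0.919 with Fas and r = −0.949 with Tnfrsf1a.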

How the data were processed

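Eosinophils of 3 subsets were sorted, with 4 libraries per subset, and 3 ng of RNA per library entered a stranded total RNA kit. Per the submitters' processing notes and the methods, the authors trimmed reads with Trimmomatic 0.39, estimated counts with kallisto 0.46.1 on mm10 (GRCm38), and normalized them with DESeq2 1.38.2. The unit of the deposited values is thus a normalized signal. They did not resolve into whole reads (38.1% to 68.4% of low values lay within 0.05 of a whole read), so limma 3.58.1 (R 4.3.3) was used, with a pseudocount of 1, a filter at a mean of 10, and a variance trend. The fit was tested on simulated data. Estimated reads per library were 13858261 to 17321909.

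All 36047 identifiers matched GENCODE M21 (GRCm38), from which coordinates, lengths, and 31-base words shared between genes were taken. Genes under the filter were compared with exact permutation tests. The genes and gene lists were chosen with earlier results of these data known. The named genes were the 9 genes, their partners, every other family gene called, the 3 called signalling genes with the largest change and a mean of at least 50 in each comparison with α4β7+ cells, and the 2 genes of most similar pattern. Further called signalling genes were named after their values were seen. Same-numbered CD22+ and α4β7− CD22− libraries deviated together (correlations 0.135 to 0.203), which by the rule used pairs them, although no label does, and the blocked fit changed no call of the 7 genes that passed the filter. Motifs were searched in RefSeq promoters. Protein sequences were not used here. A signalling gene is counted but not reported here. Tables and figures were made with Python 3.11.15, pandas 2.3.3, and matplotlib 3.10.9.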

Additional observations from a re-analysis of the deposited data

Results flagged for a closer look

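In CD22+ cells, Tnfrsf9 was at 4.50 normalized counts in replicate 2, far below the 14.8 to 16.6 of the other 3 libraries. The gap was 0.852 of the whole range, above Dixon's critical value for 4 libraries. Of 26 groups examined, 1 was flagged, and chance flags about 1 in 20. The floor of 3 reads in this library lay at 2.56.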

How the results depend on the processing

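Under 12 alternatives and 12 fits that each left out 1 library, the counts called among the genes that passed the filter (3, 3, and 0, and 0 for the difference of steps, which could not be fitted with the compared subsets alone) did not change, except that CD22+ over α4β7+ cells gave 4 on the adjusted p alone and 4 when rescaled to the same total. Among the single values, 499 kept direction and side of the threshold, 9 turned direction, and 2 passed it. Those that passed were Ltb on the adjusted p alone and Tnfsf13b rescaled to the same total, both in CD22+ over α4β7+ cells. Tnfrsf1b in α4β7− CD22− over α4β7+ cells turned to 0.010 (rescaled to the same 75th percentile) and 0.085 (rescaled to the same total), and ranged from −0.14 to 0.11 with 1 library left out. In CD22+ over α4β7+ cells, left-out ranges crossed 0 for Tnfrsf1b (−0.0083 to 0.24) and Tnfsf10 (−0.062 to 0.20). Rescaling to the same total moved the median of all genes to 0.10 and 0.17 in the comparisons with α4β7+ cells, and the calls over all genes from 564 of 1228 and 854 of 1829 higher to 820 of 1324 and 1511 of 2201 higher. In CD22+ cells it raised the calls among the other family genes from 3 to 6, with 3 higher and 3 lower. On the adjusted p alone, these other genes gave 4 and 5 calls of 22 and the signalling genes 13, 15, and 2 of 44, by construction without the fold limit, beside 14.9%, 21.1%, and 1.08% of all genes in the 3 comparisons. Tnfsf13b could not be fitted at a filter of 50, Tnfrsf9 entered only the fit without a filter, and Tnfsf13 only that fit and the one with Tnfsfm13 added.

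When replicate number entered the model as a block, 3, 3, and 0 of the 7 genes that passed the filter were called. Same-numbered libraries correlated from −0.06 to 0.20 in their deviations, over 0.1 for 7 of 12 pairs, and 10 of 12 matched their own number best. The values of Tnfsf13 and Tnfrsf9 rest on few reads. With 4 libraries per subset, the smallest exact permutation p that 70 splits allow, 0.0286, was reached by each gene in 1 comparison and became 0.0857 after adjustment over 6 tests.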
